A study of Mus musculus with 4 samples.

Results

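Chondroitin sulfate is the main glycosaminoglycan of cartilage, and 10 mouse genes that build it and load it with sulfate were followed here through H3K27ac, the acetylation of lysine 27 of histone H3 that marks active promoters and enhancers. The genes were chosen by function from 21581 protein-coding genes, with earlier results of these data known. They are, in the order of the pathway, Xylt1, Csgalnact1, Csgalnact2, Chsy1, Chsy3, Chpf, Chst11, Chst3, Papss2 and Slc26a2. All 10 were found in the annotation. The data are 4 peak lists, 1 library each, from E14.5 fetuses of a homozygous Col2a1-EGFP line of embryonic stem cells of G4 background. The fetuses were made by tetraploid aggregation and all carried the sensor, a minimal β-globin promoter with EGFP placed upstream of Col2a1, the gene of the main cartilage collagen. Microdissected limbs and trunks were each sorted by fluorescence into EGFP+ and EGFP− cells, so that EGFP− cells are the rest of the tissue with the same allele and not a single cell type. In such a mixture fewer cells with a mark and less of the mark per cell cannot be told apart. The sensor derives from 1 engineered cell line, and EGFP follows Col2a1 activity, so EGFP+ cells are chondrocytes up to the pre-hypertrophic stage. With 1 library per population there is no replicate check, and no test was made.

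Assembly of chondroitin sulfate starts on a serine of a core protein such as aggrecan, where a xylosyltransferase begins a short linker. An N-acetylgalactosaminyltransferase then commits the linker to chondroitin, and synthases extend the chain by alternating glucuronic acid and N-acetylgalactosamine. Sulfotransferases add sulfate to the galactosamine, using a donor made from inorganic sulfate that the cell takes up through a membrane transporter. The sulfated chains hold the water that lets cartilage resist compression, and several of these genes are known from inherited skeletal disorders.

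The lists held between 30716 and 40899 peak intervals, an interval being the span of 1 or more summits called together. At each summit the number of reads, local background included, was recovered from the listed fold and p-value. This was done for 100% of the summits, with a median of 26 to 29 reads per list. Reads are given with an exact Poisson 95% interval and shares with an exact Clopper-Pearson interval, and both cover counting error only. An interval was promoter if it overlapped the stretch from 2 kb before to 500 bp after a protein-coding start site, and distal if it overlapped none. The strength of an interval is given as its place in its own list by −log10 p, in percent of the list, where a small value is a strong peak. Of 14 chondrocyte marker genes, 14 had a promoter peak in each EGFP+ list, 5 did in each EGFP− list, and 8 did in both EGFP+ and neither EGFP− list, among them Acan, Matn1 and Col9a1. Of 8 skeletal muscle markers 1, Myog, had a promoter peak in limb EGFP+ cells and none in the other lists. Of 5 connective tissue markers 2 had one in each EGFP+ list and 3 in each EGFP− list, the epithelial, endothelial and blood markers had none, and 1 of 3 neural markers had one, in trunk EGFP− cells. The limb and the trunk libraries carry different lane names, so tissue and sequencing lane cannot be told apart. The peaks of trunk EGFP− cells are named as a second replicate while the label gives the first.

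The genes that make and sulfate chondroitin carried many distal H3K27ac intervals in EGFP+ cells and few in EGFP− cells. Within the gene bodies and 100 kb of the start sites the limb had 87 (95% interval 69.7 to 107) in EGFP+ and 22 (13.8 to 33.3) in EGFP− cells, and the trunk had 64 and 14. The median over the 10 genes was 8.50, 2.50, 6.50 and 1.00 intervals in the same order, beside 1.00 over all genes in each list. Most of those in EGFP+ cells had no overlapping interval in EGFP− cells of the same tissue: 78 of 87 in limb (89.7%, 81.3 to 95.2) and 57 of 64 in trunk (89.1%). Among all distal intervals of these lists that share was 68.5% and 69.1%. In EGFP− cells 10 of 22 (45.5%) and 6 of 14 (42.9%) lacked an overlapping EGFP+ interval, beside 56.6% and 57.3% of all distal intervals. The median window was 200 kb for the 10 genes and for all genes, but long genes had longer ones, up to 479 kb at Csgalnact1. The counts are thus not matched for window length. With 100 kb on each side of the start sites alone, the limb had 64 in EGFP+ and 21 in EGFP− cells, and the trunk 52 and 13. The plot of distal intervals per gene shows the 4 counts of the full window for each gene.

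**Figure D1:**
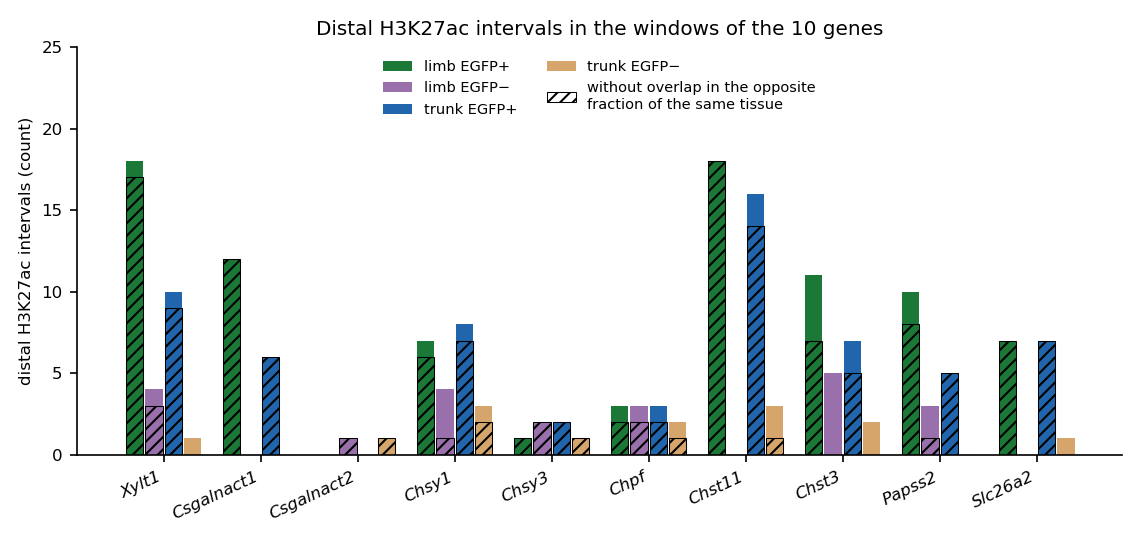
Number of distal H3K27ac intervals (vertical axis) in the window of each gene, ordered by step of the pathway, with 1 bar per list and hatching for intervals without overlap in the opposite fraction of the same tissue. Chst11 and Xylt1 reach 18 in limb EGFP+ cells. Chst11, Csgalnact1 and Slc26a2 have 0 in limb EGFP− cells, Csgalnact1 and Papss2 have 0 in trunk EGFP− cells, and Csgalnact2 has 0 in both EGFP+ lists.

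In limb 7 of the 10 genes had more distal intervals in EGFP+ than in EGFP− cells, beside 35.6% of all genes, and in trunk 9 did, beside 36.4%. The 7 genes of the limb, Chst11, Chst3, Chsy1, Csgalnact1, Papss2, Slc26a2 and Xylt1, had more in both tissues, beside 21.6% of all genes. Csgalnact2 was the 1 gene with fewer in both, a share of the 10 no different in size from the 10.2% of all genes. At least 1 distal interval found in EGFP+ but not EGFP− cells lay at 9 genes in limb, beside 54.3% of all genes, and at 9 in trunk, beside 53.2%, in each case all but Csgalnact2. The reverse, an interval found in EGFP− but not EGFP+ cells, lay at 6 genes in limb, beside 47.4%, and at 5 in trunk, beside 44.5%. These counts of genes with an EGFP− interval are close to the share among all genes.

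The sequences under distal intervals of limb EGFP+ cells are shown for 5 genes, in each the strongest that limb EGFP− cells lacked, with the strongest limb EGFP− interval that limb EGFP+ cells lacked for contrast. Trunk EGFP− cells also had an interval over the Xylt1 sequence. The like interval of Slc26a2, which stood between those of Chst11 and Papss2 in the list, is not shown. Each is 300 bp of the plus strand of GRCm39 centred on the summit. Capitals mark matches on either strand to letters of 4 factor families: the SOX core ACAATG or ACAAAG, the FOX core GTAAACA, the RUNX core TGTGGT and AP-1 TGANTCA.
Chst3 EGFP+, chr10:60038817-60039116: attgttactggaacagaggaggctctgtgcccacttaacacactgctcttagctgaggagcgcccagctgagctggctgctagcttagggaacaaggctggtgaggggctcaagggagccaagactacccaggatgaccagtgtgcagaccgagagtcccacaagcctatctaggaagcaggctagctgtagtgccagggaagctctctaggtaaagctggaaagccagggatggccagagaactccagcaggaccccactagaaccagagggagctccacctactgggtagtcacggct
Chst11 EGFP+, chr10:82966816-82967115: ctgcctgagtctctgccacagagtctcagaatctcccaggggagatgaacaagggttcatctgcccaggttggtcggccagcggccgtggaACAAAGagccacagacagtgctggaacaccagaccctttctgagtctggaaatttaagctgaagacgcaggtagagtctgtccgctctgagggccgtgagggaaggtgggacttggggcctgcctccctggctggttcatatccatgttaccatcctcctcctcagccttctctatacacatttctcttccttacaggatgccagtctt
Papss2 EGFP+, chr19:32591921-32592220: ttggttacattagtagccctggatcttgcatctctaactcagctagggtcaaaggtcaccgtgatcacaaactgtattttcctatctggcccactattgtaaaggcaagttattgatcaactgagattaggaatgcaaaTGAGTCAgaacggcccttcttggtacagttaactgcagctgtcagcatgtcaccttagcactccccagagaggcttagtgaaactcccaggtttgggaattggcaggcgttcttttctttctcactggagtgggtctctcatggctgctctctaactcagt
Xylt1 EGFP+, chr7:116980728-116981027: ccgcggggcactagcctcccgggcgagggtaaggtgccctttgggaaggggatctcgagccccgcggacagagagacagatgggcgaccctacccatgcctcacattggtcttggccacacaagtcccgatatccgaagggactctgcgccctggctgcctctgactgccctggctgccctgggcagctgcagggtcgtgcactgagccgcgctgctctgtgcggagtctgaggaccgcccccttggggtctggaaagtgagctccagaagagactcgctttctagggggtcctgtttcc
Csgalnact1 EGFP+, chr8:69159179-69159478: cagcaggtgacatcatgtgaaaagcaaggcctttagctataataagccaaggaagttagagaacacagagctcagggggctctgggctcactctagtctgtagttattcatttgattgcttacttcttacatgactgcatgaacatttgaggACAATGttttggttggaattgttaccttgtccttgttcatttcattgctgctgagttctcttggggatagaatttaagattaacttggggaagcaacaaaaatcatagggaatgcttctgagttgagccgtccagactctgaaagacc
Papss2 EGFP−, chr19:32554864-32555163: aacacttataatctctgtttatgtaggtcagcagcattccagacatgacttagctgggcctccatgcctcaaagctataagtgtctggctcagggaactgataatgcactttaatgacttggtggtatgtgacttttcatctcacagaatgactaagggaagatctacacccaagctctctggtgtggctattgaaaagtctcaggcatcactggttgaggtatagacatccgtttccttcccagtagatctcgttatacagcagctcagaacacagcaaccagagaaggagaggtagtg

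A SOX core stood in the Chst11 and Csgalnact1 sequences, AP-1 letters stood in the Papss2 EGFP+ sequence, and none of the 4 patterns was in the Chst3, Xylt1 and Papss2 EGFP− sequences. Matches may overlap one another, and they are letters in a window, not shown sites. SOX factors drive the cartilage programme, and the SOX core was as frequent here as elsewhere: 33.3% (23.6 to 44.3) of the 87 distal intervals of the genes in limb EGFP+ cells held it, and 33.5% of all distal intervals of the list. In trunk EGFP+ cells it was 37.5% (25.7 to 50.5) and 32.8%. AP-1 letters were in 16.1% (9.09 to 25.5) of the genes' intervals in limb EGFP+ cells and 8.22% of all, and in 10.9% (4.51 to 21.2) and 7.69% in trunk. RUNX letters were in 25.3% (16.6 to 35.7) and 20.3% in limb and in 31.2% (20.2 to 44.1) and 20.2% in trunk. FOX letters were rare, at 3.45% of the genes' intervals and 4.25% of all in limb EGFP+ cells.

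The promoters were less divided between the fractions than the distal intervals. All 10 genes had a promoter peak in limb EGFP+ cells, limb EGFP− cells and trunk EGFP+ cells, beside 54.4%, 51.6% and 52.6% of all genes. In trunk EGFP− cells 7 had one, beside 52.7%, and Chst11, Chst3 and Papss2 did not. The same 7 genes had one in all 4 lists, beside 47.4%, and none had a promoter peak in both EGFP+ lists and neither EGFP− list, beside 1.45%. The 3 absences differ in kind. Trunk EGFP− cells had an interval at +0.761 kb of Chst11 and +0.822 kb of Chst3, just past the promoter stretch, while at Papss2 they had no interval in the whole window. The promoter peaks of the 10 genes were also weaker than usual, with a median place of 28.6% against 15.7% for all genes with a promoter peak in EGFP+ cells of the trunk, and in EGFP− cells 44.2% against 17.2% in limb and 38.6% against 18.9% in trunk. In limb EGFP+ cells the median was 26.6%, also weaker than the median of all genes.

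**Figure D2:**
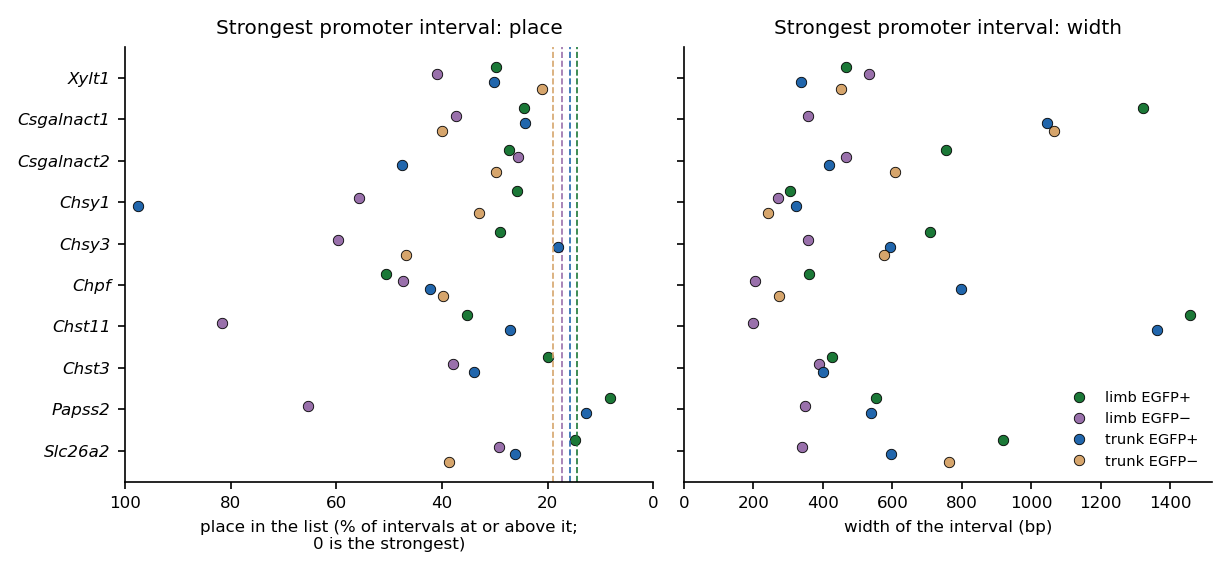
Place in its list (left, percent, with 0 as the strongest) and width (right, bp) of the strongest promoter interval of each gene, 1 point per list, with dashed lines at the median place over all genes with a promoter peak. Papss2 lies at 8.21% and 12.7% in the EGFP+ lists and at 65.4% in limb EGFP− cells. The points of Csgalnact1, Chst11, Chpf and Slc26a2 are not the same peak of the promoter in every list.

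Xylt1, xylosyltransferase 1, puts the first sugar of the linker on the core protein and spans chr7:116979979-117272803. It had 18 distal intervals in EGFP+ and 4 in EGFP− cells of the limb, and 10 and 1 in those of the trunk. Of all genes, 99.4% had fewer than that in limb EGFP+ cells and 96.8% had fewer in trunk EGFP+ cells. The Xylt1 window was 393 kb, against a median of 200 kb over all genes, so these percentages are not matched for window length. When intervals farther than 100 kb from the start were left out, Xylt1 had 13 and 3 in limb and 8 and 1 in trunk. The intervals that EGFP− cells of the same tissue lacked, 17 in limb and 9 in trunk, all lay inside the gene, from +0.898 to +130 kb in limb and from +31.3 to +123 kb in trunk. The strongest, in the first intron at chr7:116980704-116981743, had 40 reads (28.6 to 54.5) in each EGFP+ list and stood at 32.6% and 28.3% of the list. Trunk EGFP− cells had an interval of 17 reads in the same region, at 64.5%, and limb EGFP− cells had none. Another at +105 kb, chr7:117084626-117085179, was seen in both EGFP+ lists alone, with 30 reads in limb and 39 in trunk. The promoter peak was present everywhere, with 42 reads (30.3 to 56.8) in EGFP+ and 21 (13.0 to 32.1) in EGFP− cells of the limb, and 39 (27.7 to 53.3) and 34 (23.5 to 47.5) in those of the trunk. The ranges of reads overlap in every pair.

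Csgalnact1 and Csgalnact2 encode 2 enzymes for the same step, the addition of the first N-acetylgalactosamine, and their distal intervals differed. Csgalnact1 (chr8:68809433-69188165, minus strand) had 12 distal intervals in limb EGFP+ cells and 6 in trunk EGFP+ cells, every one of them without overlap in EGFP− cells, and 0 in both EGFP− lists. All were inside the gene, between +7.15 and +373 kb in limb and between +10.1 and +110 kb in trunk. The window of this gene was 479 kb, and 5 in each EGFP+ list lay no farther than 100 kb from its start. The strongest, at +28.8 kb in an intron (chr8:69158802-69159755), had 44 reads (32.0 to 59.1) in limb and 35 (24.4 to 48.7) in trunk, at 34.9% and 37.7% of the lists. Another at +40.7 kb was 1 interval of 1145 bp in limb, and trunk EGFP+ cells had 2 within it, of 439 and 244 bp. Csgalnact2 (chr6:118083855-118116169) had 0 distal intervals in both EGFP+ lists and 1 in each EGFP− list, of 7 reads in limb and 11 in trunk, at −66.3 and −65.7 kb. With a −log10 q of at least 5, the 20000 strongest intervals, a window of 50 kb or the nearest start site it had none in any list. Both genes had a promoter peak in all 4 lists. That of Csgalnact1 stood at 24.4% and 24.3% in the EGFP+ lists and at 37.4% and 40.0% in the EGFP− lists. In limb EGFP− cells it was an interval of 356 bp at the start site. Another of 12 reads lay apart from it, from +0.337 to +0.759 kb, at 78.6%. The other lists had a single interval across both, of 1321, 1046 and 1064 bp. The promoter peak of Csgalnact2 stood at 27.4%, 25.7%, 47.6% and 29.8% in limb EGFP+, limb EGFP−, trunk EGFP+ and trunk EGFP− cells. So the promoter of Csgalnact2 was not placed higher in EGFP+ cells in either tissue.

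The chain is extended by the chondroitin synthases Chsy1 and Chsy3 with the polymerizing factor Chpf, and of the 3 Chsy1 had the most distal intervals. Chsy1 (chr7:65759199-65824975) had 7 in EGFP+ and 4 in EGFP− cells of the limb, and 8 and 3 in those of the trunk. In the 20000 strongest intervals of each list it had fewer in EGFP+ than in EGFP− cells of the limb, a difference of −1, and with a −log10 q of at least 5 the limb difference was 0. Its strongest distal interval, at +0.886 kb in limb EGFP+ cells, had 61 reads (46.7 to 78.4) and was also covered in EGFP− cells. The strongest region that EGFP− cells lacked lay beyond the gene at +90.2 kb (chr7:65849207-65849707), with 25 reads in limb and 23 in trunk EGFP+ cells. The Chsy1 promoter peak had 58 reads (44.0 to 75.0) over a background of 11.6 in limb EGFP+ cells and 25 (16.2 to 36.9) over 11.6 in trunk EGFP+ cells. In EGFP− cells it had 24 reads (15.4 to 35.7) in limb and 38 (26.9 to 52.2) in trunk. It was therefore stronger in EGFP+ cells in limb, at 25.8% against 55.8%, and weaker in trunk, at 97.6% against 33.0%. In trunk EGFP+ cells a 1223 bp interval of 56 reads lay just downstream, at +0.848 kb, and stood at 23.3%.

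Chsy3 had few and weak distal intervals, 1 in EGFP+ and 2 in EGFP− cells of the limb and 2 and 1 in those of the trunk, none above 13 reads. Its promoter peak was placed higher in EGFP+ cells of both tissues, at 29% against 59.7% in limb and 18% against 46.9% in trunk, with 34 reads (23.5 to 47.5), 14 (7.65 to 23.5), 37 (26.1 to 51.0) and 19 (11.4 to 29.7) in limb EGFP+, limb EGFP−, trunk EGFP+ and trunk EGFP− cells. The ranges of reads met at 23.5 in limb and overlapped in trunk. Chpf (chr1:75451206-75455951) lies among 7 other start sites, and its window held 3, 3, 3 and 2 distal intervals beside 10 to 12 in promoters of other genes. The strongest, in an exon of Slc4a3 at −80.1 kb, was in all 4 lists with 62, 44, 51 and 46 reads. Its promoter held 2 peaks. In each list the stronger one also overlapped the promoter stretch of another gene, so it cannot be assigned to Chpf alone. The one at the start site was in all 4 lists, with 20, 18, 22 and 25 reads, and was placed higher in EGFP− than in EGFP+ cells, at 47.4% against 63.1% in limb and 39.9% against 51.0% in trunk. The one at +0.779 kb had 25 reads in limb and 26 in trunk EGFP+ cells, 17 in trunk EGFP− cells and none called in limb EGFP− cells, at 50.7%, 42.3% and 70.7% of the lists that had it.

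**Figure D3:**
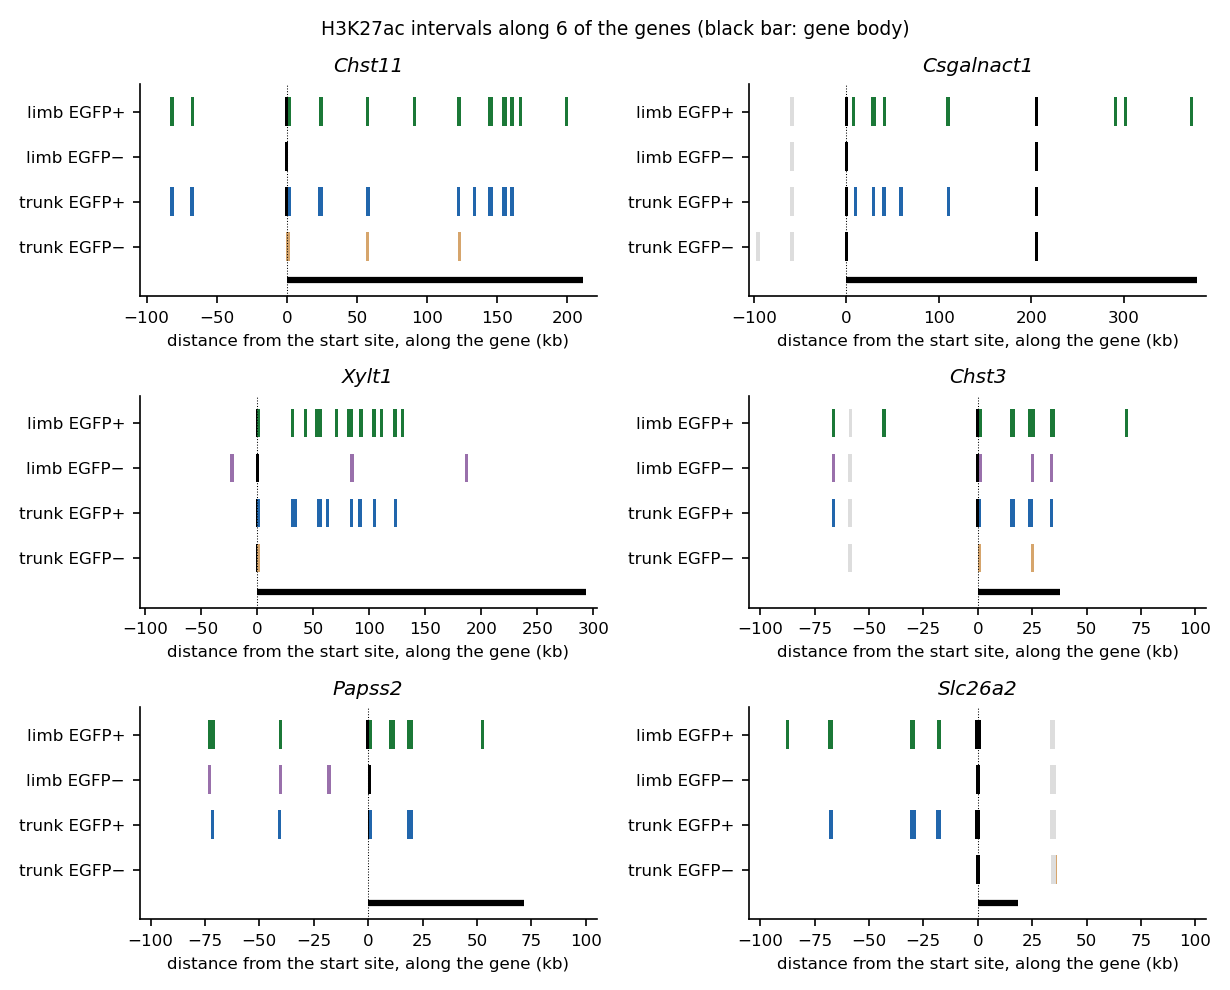
H3K27ac intervals along 6 of the genes, 1 row per list, by distance from the start site along the gene (kb). Coloured marks are distal, black marks are the gene's own promoter, light grey marks are promoters of other genes, the bar underneath is the gene body, and short intervals are widened to stay visible. Marks of the EGFP+ rows run through the introns of Chst11, Csgalnact1 and Xylt1, and those of Slc26a2 lie on its upstream side.

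Chst11, the chondroitin 4-O-sulfotransferase 1, had the largest differences in number of distal intervals between EGFP+ and EGFP− cells of the 10 genes in both tissues, with the whole gene body counted. Its window (gene at chr10:82821180-83031734) held 18 distal intervals in EGFP+ and 0 in EGFP− cells of the limb, and 16 and 3 in those of the trunk. Of all genes 99.4% had fewer in limb EGFP+ cells and 99.5% fewer in trunk EGFP+ cells. The window was 311 kb, against a median of 200 kb over all genes. With a fold of at least 4 it had 4 and 0 in limb and 2 and 1 in trunk, differences smaller than the 6 and 3 of Csgalnact1. No other start site lies in the window. Of its 20 distal regions, made by merging overlapping intervals of the 4 lists, 12 had a peak in both EGFP+ lists and no EGFP− list. They formed a group upstream, from −82.4 to −67.1 kb, and another across the introns out to +161 kb. The strongest by reads lay at +146 kb (chr10:82966777-82967562), with 89 reads (71.5 to 110) in limb and 55 in trunk EGFP+ cells, at 27.9% and 49.2% of the lists. The upstream one at −81.7 kb (chr10:82739241-82740082) had 43 reads in limb and 25 in trunk, at 29.9% and 47.5%. At +123 kb (chr10:82944256-82944878) limb EGFP+ cells had 56 reads and trunk EGFP− cells 14, while trunk EGFP+ cells had none in that region but an adjacent one of 33 reads at +122 kb.

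The Chst11 promoter held 2 peaks. The one past the start site, from +0.317 to +1.773 kb in limb EGFP+ cells, was 1457 bp wide with 57 reads (43.2 to 73.9) there and 1361 bp wide with 54 reads (40.6 to 70.5) in trunk EGFP+ cells. Trunk EGFP− cells had 269 bp with 25 reads in that region, and limb EGFP− cells had no interval. The one just before the start site was 489 bp wide with 54 reads in limb and 336 bp wide with 39 reads in trunk EGFP+ cells, at 39.8% and 52.3% of the lists. Limb EGFP− cells had 200 bp with 13 reads (6.92 to 22.2) there, at 81.6%, and trunk EGFP− cells had none. The fold over the local background was 3.59 there, over 2.90 background reads. At the peak past the start site it was 3.51 over 15.5 in limb and 4.05 over 12.6 in trunk EGFP+ cells. For the trunk EGFP− interval in that region it was 4.42 over 4.88. The background reads were thus higher where the summit reads were. The gene lies whole in 1 of the 8 spans that responded to selection for longer tibiae in the Longshanks mice, as the study placed them. The window of Chsy3 touched the edge of another such span, and those of the other 8 genes touched none.

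Chst3, the chondroitin 6-O-sulfotransferase 1, had 11 distal intervals in EGFP+ and 5 in EGFP− cells of the limb, and 7 and 2 in those of the trunk. Its strongest one in limb EGFP+ cells was in all 4 lists. It lay in an intron at +0.785 kb (chr10:60053636-60054620) with 99 reads (80.5 to 121) in limb EGFP+ cells, at 7.86% of the list, 26 in EGFP− cells of the same tissue, and 30 and 31 in EGFP+ and EGFP− cells of the trunk. Limb EGFP+ cells thus stood above the other 3 lists there. A pair of neighbouring intronic regions was seen in EGFP+ cells alone. The one at +16.2 kb (chr10:60038292-60039167) had 72 reads in limb and 39 in trunk, and stood at 25.8% and 44.9%. The one at +15.7 kb (chr10:60039270-60039800) had 53 in limb and 48 in trunk, and stood at 45.8% and 30.8%. It was the strongest distal interval of Chst3 in trunk EGFP+ cells, where the one at +0.785 kb stood at 57.9%. The promoter peak had 75 reads (59.0 to 94.0) in EGFP+ and 30 (20.2 to 42.8) in EGFP− cells of the limb, and 40 (28.6 to 54.5) in EGFP+ cells of the trunk. Its folds over local backgrounds of 15.2, 5.40 and 8.82 reads lay close together, at 4.70, 4.84 and 4.18. When only intervals of at least 4-fold were kept, Chst3 had fewer distal intervals in EGFP+ than in EGFP− cells of the trunk, a difference of −1.

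Papss2, PAPS synthase 2, makes the activated sulfate that every sulfotransferase uses, and its promoter was far apart in place between the limb fractions. In limb EGFP+ cells it had 120 reads (99.5 to 143) over a background of 24.0, at 8.21% of the list, and in trunk EGFP+ cells 71 reads (55.5 to 89.6) over 12.9, at 12.7%. In limb EGFP− cells it had 14 reads (7.65 to 23.5) over 2.48, at 65.4%, and trunk EGFP− cells had no peak. The folds over the local background, 4.84, 5.16 and 4.31, lay close together where the reads did not, as the background reads were higher where the summit reads were. Papss2 (chr19:32573055-32644589) had 10 distal intervals in EGFP+ and 3 in EGFP− cells of the limb, and 5 and 0 in those of the trunk. With a fold of at least 4 it had 3 in each limb fraction and 0 in each trunk fraction, so the difference was 0 in both tissues. The strongest that limb EGFP− cells lacked was an intronic one at +19 kb (chr19:32591185-32592251). It was 1067 bp wide with 63 reads (48.4 to 80.6) in limb and 320 bp wide with 29 reads in trunk, at 32.1% and 80.4% of the lists. One at −40.5 kb (chr19:32532204-32533112) was in both EGFP+ lists and in limb EGFP− cells. The strongest EGFP− interval that EGFP+ cells lacked, over all 10 genes, was at −18 kb (chr19:32554884-32555150) with 16 reads in limb.

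Slc26a2, the sulfate transporter of the cell membrane, had peaks at its promoter in all 4 lists and 7 distal intervals in each EGFP+ list, none of which overlapped one in EGFP− cells. Limb EGFP− cells had 0 and trunk EGFP− cells had 1. All 7 of each EGFP+ list lay upstream, between −87.2 and −17.7 kb in limb and between −67.4 and −17.7 kb in trunk, and all fell inside other genes, mainly in introns of Pde6a. The strongest in limb, at −30.5 kb (chr18:61375045-61375538), had 52 reads (38.8 to 68.2) in limb and 28 in trunk EGFP+ cells. The strongest in trunk, at −17.7 kb (chr18:61361945-61362520), had 34 reads (23.5 to 47.5) in trunk and 18 in limb. None of these intervals had the Slc26a2 start site as its nearest, so with assignment to the nearest start site the gene had 0 distal intervals in EGFP+ cells. The promoter held 2 peaks in every list. The one past the start site stood at 14.8% in limb EGFP+ cells with 63 reads (48.4 to 80.6), at 49.4% with 21 (13.0 to 32.1) in limb EGFP− cells, at 26.2% with 42 (30.3 to 56.8) in trunk EGFP+ cells and at 38.6% with 29 (19.4 to 41.6) in trunk EGFP− cells. The reads of the fractions did not overlap in limb and overlapped in trunk. The fold of this peak over the local background was 6.96 in limb EGFP+, 5.11 in trunk EGFP+ and 4.87 in trunk EGFP− cells. The one before it had 59, 31, 36 and 22 reads in limb EGFP+, limb EGFP−, trunk EGFP+ and trunk EGFP− cells.

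The distal intervals of the 10 genes stood mostly in the weaker part of their lists. Their median place was 65.2% in limb and 63.7% in trunk EGFP+ cells, beside 67.3% and 68.3% for all distal intervals. Those that EGFP− cells of the same tissue lacked were more often in the upper part of the list than all such intervals. In limb 28.2% of the 78 stood in the upper 50% of the list, beside 16.0% of all such intervals, and in trunk 28.1% of the 57 did, beside 13.6%. Their median was 24.5 reads in limb and 23 in trunk, beside 16.0 over all such intervals in each list. None of the 10 limb and 6 trunk EGFP− intervals without an EGFP+ overlap stood in the upper 50%, beside 8.87% and 6.71% of all. Of the 78 in limb, 59 lay inside the gene itself, 11 inside another gene and 8 between genes, and of the 57 in trunk 36, 13 and 8. Few were close to the start, with 3 of the limb and 1 of the trunk intervals within 2 kb of it.

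**Figure D4:**
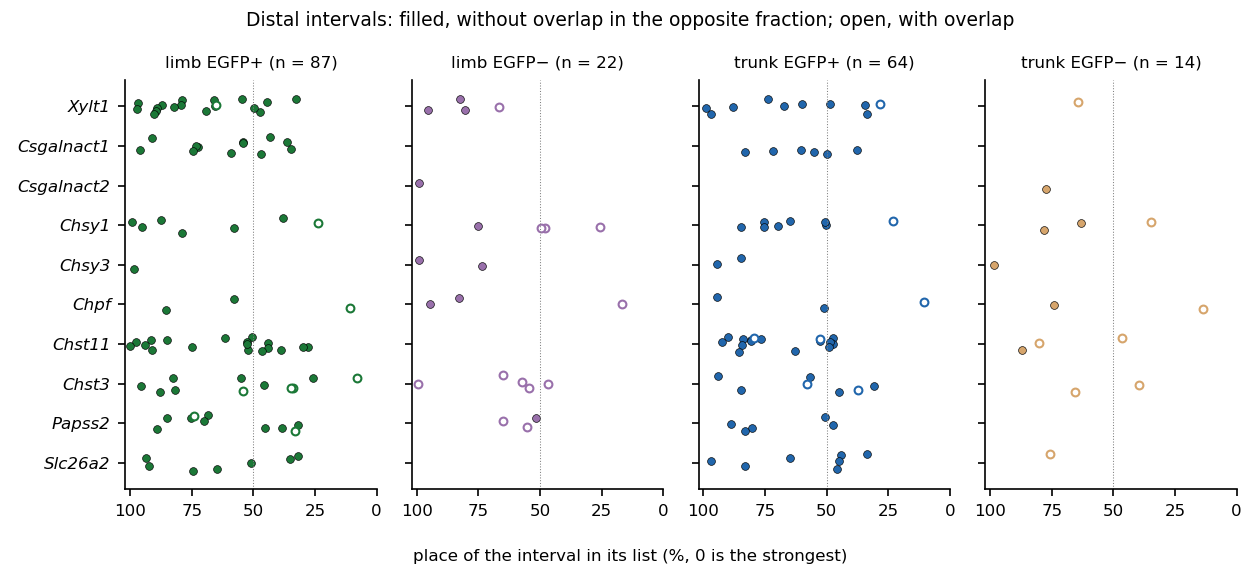
Place of every distal interval of the 10 genes in its list (horizontal axis, percent, 0 is the strongest; dotted line at 50), 1 panel per list, with filled points for intervals without overlap in the opposite fraction. The EGFP+ panels hold 87 and 64 points and reach places of 7.86% and 10.6%, and no filled point of the EGFP− panels lies in the upper 50%.

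Limb and trunk EGFP+ cells shared much of this pattern. Of the 114 distal regions of the 10 genes, 36 (31.6%, 23.2 to 40.9) had a peak in both EGFP+ lists and in neither EGFP− list, beside 10.8% of all 42651 distal regions. Another 37 (32.5%, 24.0 to 41.9) had one in limb EGFP+ cells alone, beside 21.8%, and 14 (12.3%, 6.88 to 19.7) in trunk EGFP+ cells alone, beside 14.6%. No region was seen in both EGFP− lists alone, beside 4.62%, and 4 (3.51%) were in all lists, beside 8.87%. Chst11 gave 12 of the 36 shared regions, Xylt1 5, Slc26a2 5, Chsy1 4, Papss2 4, Csgalnact1 3 and Chst3 3. Regions of limb EGFP+ cells alone were most frequent at Xylt1, with 10, and Csgalnact1, with 9. Of the 36 shared regions, 20 (55.6%, 38.1 to 72.1) were placed higher in limb than in trunk, beside 59.3% of all shared regions, so the genes did not stand apart in this.

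**Figure D5:**
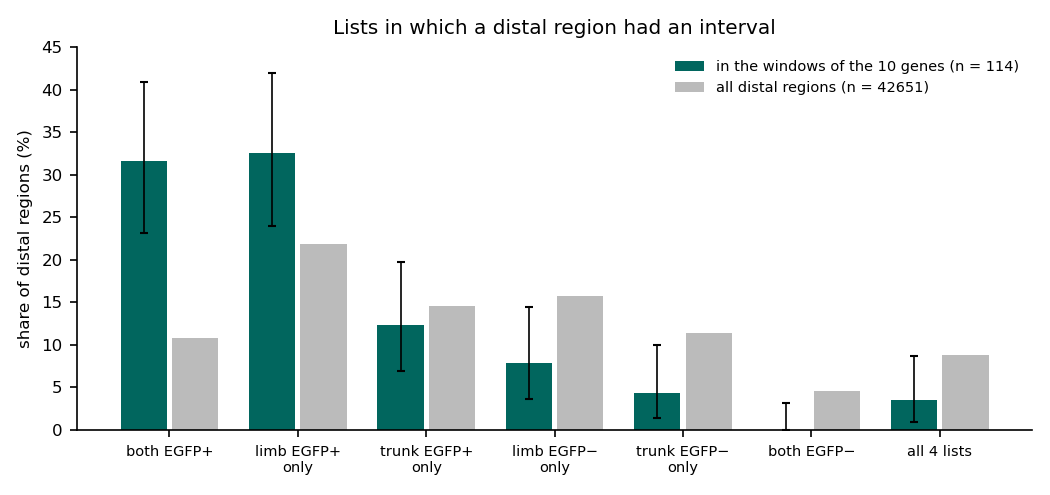
Share of distal regions (percent, with exact 95% intervals of counting error for the 10 genes) by the lists that had an interval in them, for the 114 regions at the 10 genes and for all 42651 distal regions. The bar for both EGFP+ lists is at 31.6% for the genes and 10.8% for all regions, and the bar for both EGFP− lists is at 0.

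The other genes of glycosaminoglycan metabolism were counted the same way, and each of the 4 groups described here had a lower median of distal intervals than the 10 genes in both EGFP+ lists. In EGFP− cells the degradation and the heparan sulfate genes had higher medians than the 10. The 13 genes of the linker and the precursors had a median of 3 distal intervals in EGFP+ and 2 in EGFP− cells of the limb, and 2 and 1 in those of the trunk. Of the 13, 8 had more in EGFP+ cells in both tissues, beside 21.6% of all genes. Among them Pxylp1, the phosphatase that removes phosphate from the linker xylose, had 16, 5, 17 and 6, and Fam20b, the kinase that adds it, had 15, 10, 13 and 11. Papss1, the other PAPS synthase, had 6, 0, 2 and 0. The 9 other chondroitin and dermatan sulfate enzymes had medians of 3, 2, 2 and 1, and 3 of the 9 had more in EGFP+ cells in both tissues, beside the same 21.6%. Ust, a uronyl 2-sulfotransferase, had 9, 2, 7 and 3, Dse, an epimerase that makes dermatan sulfate, had 4, 2, 7 and 0, Chst12, another 4-O-sulfotransferase, had 3, 5, 4 and 0, and Chst15 had 3, 3, 5 and 2.

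The 10 genes of degradation had medians of 5, 4.5, 4.5 and 2.5 distal intervals, and 5 had more in EGFP+ cells in both tissues, beside 21.6% of all genes. The 19 heparan sulfate genes, whose chains start from the same linker, had medians of 3, 3, 3 and 2. Of these, 5 had more in EGFP+ cells in both tissues, close to the 21.6% of all genes. Hs2st1, a 2-O-sulfotransferase, had 9, 5, 7 and 4, Ndst1, an N-deacetylase and N-sulfotransferase, had 10, 10, 10 and 8, and Ext1, a heparan sulfate polymerase, had 7, 1, 6 and 2. Extl1, an exostosin-like gene, was the only gene of these 4 groups with a promoter peak in both EGFP+ lists and neither EGFP− list. Among all genes 1.45% had this pattern, so a single such gene in these groups is near the share of all genes. The 14 chondrocyte markers had medians of 11, 2.5, 7 and 1, and the 10 chondroitin sulfate genes had 8.50, 2.50, 6.50 and 1.00.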

How the data were processed

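H3K27ac ChIP-seq was analysed from the 4 deposited peak lists, 1 library per population. The authors sampled libraries to a similar number of reads with Seqtk, trimmed them with CutAdapt 1.18, mapped them with Bowtie2 2.3.5.1 to GRCm39, filtered on mapping quality with Samtools and called peaks with MACS2 2.2.7.1, reads being extended to 200 bp. No control library and no q threshold is named, and the sources used here give read length as a choice of 2 values, not by library. The deposited score is 10 times the −log10 q, the deposited fold is a ratio of summit pileup to local background, and the deposited −log10 p and −log10 q were made by the authors' MACS2 within each library. Library totals are not in the files, so depth is known only as reads at summits.

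Summits listed under one start and end were taken as 1 interval. Reads were recovered from fold and −log10 p, as the count that gives the listed p under a Poisson law. Genes, exons and start sites came from GENCODE vM39, and the window was the gene body or 100 kb of the start site. Intervals were compared by an overlap of at least 1 bp. Places in a list are by −log10 p, and folds of different lists were not divided. With 1 library per population there was no test. For each gene the promoter interval, the strongest distal interval, and up to 3 distal regions without overlap in the opposite fraction were considered for naming, and in the other gene lists those with the most such intervals, ties included, except in the degradation list, whose single genes are not reported here. The 10 genes, the other lists and the markers were chosen with earlier results of these data known. Overlap, merging and read recovery were tested on simulated data. Python 3.11.15, pandas 2.3.3, scipy 1.17.1 and pysam 0.24.0 were used. Alternatives were stricter peak filters, other windows, another overlap and assignment to the nearest start site.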

Additional observations from a re-analysis of the deposited data

Results flagged for a closer look

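At 3 genes the contrast of EGFP+ with EGFP− cells ran opposite ways in limb and trunk, with 1 library on each side, and these differences were not tested. Chsy3 had 1 distal interval fewer in EGFP+ cells in limb, a difference of −1, and 1 more in trunk, on counts of 1 or 2 intervals. The Chsy1 promoter was placed 30 percentage points of the list higher in EGFP+ than in EGFP− cells in limb, and lower in trunk, with a difference of −64.6, although its trunk EGFP+ reads, 25 (16.2 to 36.9), overlap the 38 (26.9 to 52.2) of trunk EGFP− cells within counting error. The Xylt1 promoter was placed 11.2 points higher in EGFP+ cells in limb and lower in trunk, with −9.10.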

How the results depend on the processing

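No paired analysis was possible because the labels give every population the replicate number 1 and no result comes from a test, and no library could be left out. In each tissue the summed distal intervals stayed more numerous in EGFP+ than in EGFP− cells under every alternative run. In limb EGFP+, limb EGFP−, trunk EGFP+ and trunk EGFP− cells they were 46, 9, 31 and 4 with a −log10 q of at least 5, 27, 9, 26 and 6 in the 20000 strongest intervals of each list, and 28, 9, 17 and 6 with a fold of at least 4, all fewer by construction. Those without an opposite overlap were 41, 2, 28 and 0, then 23, 3, 23 and 2, then 24, 4, 15 and 3. With a window of 50 kb trunk EGFP− cells had 9, of which 2 lacked an overlap. With assignment to the nearest start site limb EGFP− cells had 13, of which 6 lacked an overlap, and trunk EGFP− cells had 7, of which 1 did. With a promoter stretch of 2 kb on each side, chosen after seeing the data, trunk EGFP− cells had 9, and 9 genes had a promoter peak there. The difference of EGFP+ minus EGFP− cells turned to −1 for Chsy1 in limb with the 20000 strongest intervals and to −1 for Chst3 in trunk with a fold of at least 4, and the cause was not tested. The other 77 values of the main counts stayed within 1.5 times. Summits rest on few reads, so an interval missing from a list is one not called at this depth.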
